A study of Mus musculus with 18 samples.

Results

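The genes described here carry out or control the cell division cycle: cyclins and their kinases, the machinery of DNA replication, and the kinases, chromosome proteins and motors of mitosis. They were taken by symbol from the deposited table, and all 38 were found among its 19094 protein-coding genes. Of them, 16 act in G1, at the entry to S phase or in DNA replication (6 G1 and G1/S genes and 10 replication genes) and are called the S phase genes below. The other 22 act in G2 and mitosis (12 control genes and 10 genes of chromosomes and the spindle) and are called the mitotic genes.

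RNA was sequenced from cells isolated from the hearts of 6 mice aged 16 months, 3 of them carrying a Bag3-P209L transgene (Tg+) and 3 Bag3-WT. Each mouse gave 1 library labelled cardiac fibroblast and 2 labelled cardiomyocyte (rep1 and rep2), so that 18 libraries gave 12 columns once the repeats were summed, with the mouse as replicate. BAG3 is a co-chaperone of HSP70 in the clearance of damaged muscle proteins. What promoter drives the transgene, how the cells were isolated and whether Bag3 counts include reads of the transgene is not stated in the labels. Levels are CPM, counts scaled to 1e6 counts on nuclear genes. Fold changes are log2 values from edgeR's quasi-likelihood test after TMM scaling, which lowered the difference of cardiomyocytes minus fibroblasts by 0.39 (log2, median over all genes) against nuclear library size alone. Levels and fold changes therefore stand on different scales, and a call means a Benjamini-Hochberg adjusted p under 0.05 over all genes tested.

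In G1, cyclin D with CDK4 or CDK6 and then cyclin E with CDK2 phosphorylate the RB protein and free E2F factors, which switch on the genes of DNA replication. Mitotic genes follow later, driven by the MYB-MuvB complex and FOXM1 through a promoter element called the cell cycle genes homology region (CHR), often beside CCAAT boxes bound by NF-Y, and in resting cells the DREAM complex holds both groups down. Adult cardiomyocytes have left the cell cycle and divide rarely, while fibroblasts and macrophages of the heart can re-enter it.

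Promoter sequences of 9 genes are shown because the results below turn on these genes, 5 mitotic and 4 of replication. They are the 250 bases before the start in RefSeq's table for GRCm38.p6, written 5′ to 3′ on the strand of the gene, with matches to 3 kinds of motif in capitals. The motifs are the CHR (TTTGAA, or TTCAAA on the other strand), the NF-Y box (CCAAT, or ATTGG) and 4 E2F sites (TTTGGCGC, TTTCGCGC, TTTCCCGC and TTTGGCGG, or their reverse complements), and an E2F site may overlap another one. The windows are Top2a at chr11:99024190-99024439, minus strand, Cenpf at chr1:189688087-189688336, minus strand, Cdk1 at chr10:69352913-69353162, minus strand, Plk1 at chr7:122159185-122159434, plus strand and Mki67 at chr7:135716380-135716629, minus strand. Those of the replication genes are Pcna at chr2:132253181-132253430, minus strand, Mcm5 at chr8:75109259-75109508, plus strand, Mcm6 at chr1:128359706-128359955, minus strand and Rrm2 at chr12:24708004-24708253, plus strand.
Top2a: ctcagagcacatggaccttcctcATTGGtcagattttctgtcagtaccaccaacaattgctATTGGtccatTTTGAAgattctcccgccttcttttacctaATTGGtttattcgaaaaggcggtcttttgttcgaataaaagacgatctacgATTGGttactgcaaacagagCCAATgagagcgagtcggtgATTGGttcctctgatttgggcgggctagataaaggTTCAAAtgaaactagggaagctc
Cenpf: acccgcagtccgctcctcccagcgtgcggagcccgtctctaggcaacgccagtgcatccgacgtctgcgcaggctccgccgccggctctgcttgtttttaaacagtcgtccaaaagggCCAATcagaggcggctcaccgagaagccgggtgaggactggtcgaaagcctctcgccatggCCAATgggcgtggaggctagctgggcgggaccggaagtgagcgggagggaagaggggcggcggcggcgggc
Cdk1: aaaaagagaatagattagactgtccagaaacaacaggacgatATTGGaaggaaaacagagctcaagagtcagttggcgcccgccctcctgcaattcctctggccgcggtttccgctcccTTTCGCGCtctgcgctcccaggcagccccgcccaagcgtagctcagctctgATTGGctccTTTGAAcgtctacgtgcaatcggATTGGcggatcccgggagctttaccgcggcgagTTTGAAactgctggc
Plk1: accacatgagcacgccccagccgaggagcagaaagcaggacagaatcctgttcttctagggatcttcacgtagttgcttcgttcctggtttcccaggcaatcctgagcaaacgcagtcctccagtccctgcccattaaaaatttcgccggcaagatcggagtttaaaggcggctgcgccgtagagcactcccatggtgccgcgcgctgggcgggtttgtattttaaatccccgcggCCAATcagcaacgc
Mki67: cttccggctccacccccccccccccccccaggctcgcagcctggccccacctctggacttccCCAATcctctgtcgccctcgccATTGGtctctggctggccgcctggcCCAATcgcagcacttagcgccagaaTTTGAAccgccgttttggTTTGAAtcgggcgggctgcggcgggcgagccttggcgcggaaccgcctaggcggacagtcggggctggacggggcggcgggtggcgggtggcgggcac
Pcna: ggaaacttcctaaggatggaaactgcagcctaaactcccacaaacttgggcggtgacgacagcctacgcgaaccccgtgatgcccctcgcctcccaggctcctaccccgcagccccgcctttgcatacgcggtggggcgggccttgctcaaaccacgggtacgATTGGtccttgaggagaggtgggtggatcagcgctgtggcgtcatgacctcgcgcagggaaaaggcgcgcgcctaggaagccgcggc
Mcm5: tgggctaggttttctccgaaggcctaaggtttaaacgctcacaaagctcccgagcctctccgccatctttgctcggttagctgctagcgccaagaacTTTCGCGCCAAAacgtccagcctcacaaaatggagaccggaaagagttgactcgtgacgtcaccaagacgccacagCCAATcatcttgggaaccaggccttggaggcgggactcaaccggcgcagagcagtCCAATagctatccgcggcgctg
Mcm6: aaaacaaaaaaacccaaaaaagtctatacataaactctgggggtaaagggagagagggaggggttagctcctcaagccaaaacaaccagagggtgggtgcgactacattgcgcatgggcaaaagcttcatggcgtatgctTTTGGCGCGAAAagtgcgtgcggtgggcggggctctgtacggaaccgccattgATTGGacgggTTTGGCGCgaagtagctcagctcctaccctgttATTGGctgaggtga
Rrm2: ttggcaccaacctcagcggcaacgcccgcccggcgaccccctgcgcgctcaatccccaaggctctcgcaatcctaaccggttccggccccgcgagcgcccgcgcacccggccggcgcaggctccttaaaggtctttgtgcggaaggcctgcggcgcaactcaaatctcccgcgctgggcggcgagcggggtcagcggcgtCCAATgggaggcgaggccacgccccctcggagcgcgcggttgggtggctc

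The table held a promoter for 30 of the 38 genes, 18 mitotic and 12 S phase. Prc1 and Mcm7 had more than 1 row, and 1 row of each was counted. The row of Prc1 that was not counted holds a CHR, and that of Mcm7 holds no E2F site. The shares over the whole table count every row, also where a gene has several. The CHR was present in 7 of 18 mitotic promoters (38.9%), in 1 of 12 S phase promoters (8.33%) and in 16.0% of the 32851 promoters of the table. The NF-Y box was present in 16 of 18 mitotic and 9 of 12 S phase promoters, against 33.8% of all. An E2F site was present in 1 of 18 mitotic promoters (Cdk1) and 4 of 12 S phase promoters, against 1.96% of all. Among the sequences shown, Top2a, Cdk1 and Mki67 hold 2 CHR matches each, and Cenpf and Plk1 hold none. Mcm5 holds 2 overlapping E2F matches and Mcm6 holds 3, while Pcna and Rrm2 hold an NF-Y box and none of these 4 E2F sites. These are matches of letters and no measure of binding.

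The cardiomyocyte columns held 2.26 to 7.79 M nuclear counts (M, 1e6) and the fibroblast columns 11.3 to 15.8 M. The 13 mitochondrial genes took 51.7% to 85.5% of cardiomyocyte and 16.7% to 74.2% of fibroblast counts and were left out of the library sizes. The counts are the authors' estimates, and for 27 of the 38 genes they were not whole (tolerance 1e-06) in at least 9 of 18 libraries, so levels of genes that share reads with similar sequences are uncertain to that extent. The targeted gene Bag3 stood in cardiomyocytes at 201, 155 and 205 CPM in Tg+ mice 1 to 3 and at 389, 161 and 128 in Bag3-WT mice 1 to 3. In fibroblasts it stood at 388, 469.8 and 227 and at 230.0, 403 and 338, and the genotypes overlapped in both cell types. The cardiomyocyte column of Tg+ mouse 3, whose animal code holds the letter F, carried 62 counts of Ddx3y and 172 of Eif2s3y, which lie on the Y chromosome, while the fibroblast column of the same mouse carried 0 of both. The cardiomyocyte columns of the other 2 mice coded F (Tg+ mouse 1 and Bag3-WT mouse 1) carried 24 and 19 counts of Eif2s3y and 0 of Ddx3y, and their fibroblast columns 0 of both. The calls by cell type, the genotype signs, the interaction and the spread between mice are given with and without Tg+ mouse 3.

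The labels were checked against markers of each cell type. All 9 cardiomyocyte markers were higher in cardiomyocyte libraries (summed level 2872 to 7388 CPM against 741 to 1895). Fibroblast markers went partly against the label: 2 of 8 (Col1a1 and Col1a2) were higher in cardiomyocyte libraries and 1 (Tcf21) was lower, and their summed level was 5945 to 20925 CPM in cardiomyocyte against 1455 to 5083 in fibroblast libraries. All 8 macrophage markers were higher in fibroblast libraries (3625 to 9984 CPM against 721 to 3063). All 5 smooth muscle and pericyte markers and 4 of 5 mesothelial markers were higher in cardiomyocyte libraries (the fifth, Wt1, was lower), at summed levels of 688 to 4356 against 191 to 1641 CPM and 34.6 to 1075 against 92.6 to 211 CPM. The 5 erythroid markers tested were all lower in cardiomyocyte libraries (71.3 to 10053 CPM against 161 to 12489), as were 3 of 6 lymphocyte markers (1.10 to 43.5 against 13.9 to 74.4), 2 of 6 endothelial markers (1560.3 to 4429 against 1530.1 to 3506) and 1 of 3 neutrophil markers tested (4.02 to 62.6 against 39.9 to 123). The neutrophil marker Ly6g was listed at 0 in every cardiomyocyte column, and the mesothelial marker Upk1b, the lymphocyte markers Cd3g, Ms4a1 and Cd8a and the erythroid marker Alas2 were at 0 in at least 1 column. The libraries were thus mixtures, and the part of these other cells in the differences below was not tested. In such bulk samples fewer cells of a type and less RNA per cell cannot be told apart.

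Most cell cycle genes that differed between the cell types were higher in the cardiomyocyte libraries. Among the 22 mitotic genes 11 were higher and 2 lower, with a median log2 fold change of 1.13 over all 22. Among the 16 S phase genes 6 were higher and 2 lower, with a median of 0.77. Over all 13284 genes tested 20.4% were called higher and 24.7% lower in cardiomyocytes, and the median was -0.02. By role, 4 of 12 mitotic control genes were higher and 0 lower, 7 of 10 chromosome and spindle genes were higher and 2 lower, 5 of 10 replication genes were higher and 1 lower, and 1 of 6 G1 genes was higher and 1 lower. With nuclear library size alone in place of TMM the split became 14 higher and 0 lower for the mitotic genes and 11 higher and 1 lower for the S phase genes. All genes moved the same way, with 4571 higher and 2160 lower against 2704 and 3285 with TMM.

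**Figure D1:**
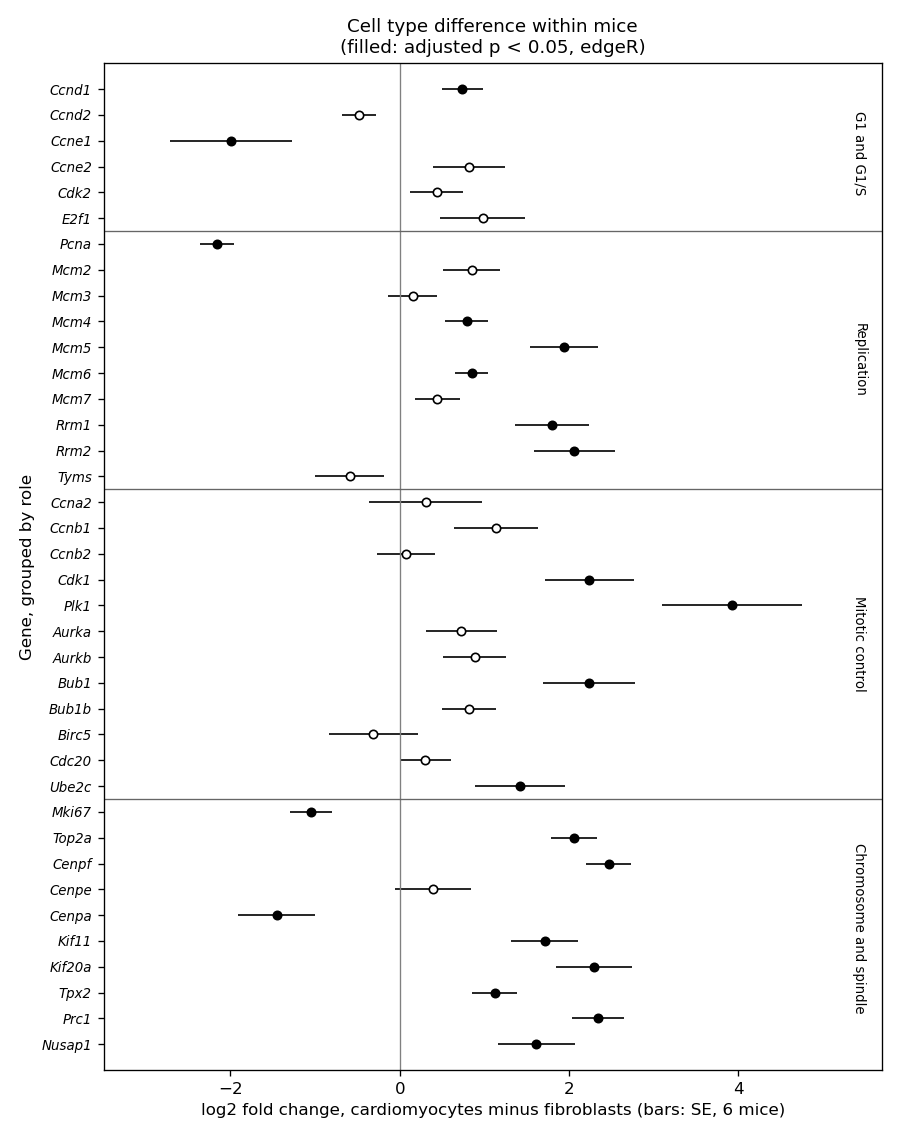
Log2 fold change of each gene in cardiomyocytes minus fibroblasts within 6 mice (x axis, log2 after TMM scaling), with bars for the SE and filled points for adjusted p under 0.05 by edgeR. Among the 21 filled points, 17 lie to the right of 0, up to Plk1 at 3.93, and Ccne1, Pcna, Mki67 and Cenpa lie to the left.

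Of the 10 genes of chromosomes and the spindle 9 were called, and their median log2 fold change was 1.67. Top2a encodes topoisomerase II alpha, which untangles replicated DNA before chromosomes separate, and lies at chr11:98992943-99024189 on the minus strand of GRCm38. Its levels in cardiomyocytes were 60.8, 50.0 and 93.5 CPM in Tg+ mice 1 to 3 and 86.2, 41.6 and 67.2 in Bag3-WT mice 1 to 3. In fibroblasts they were 10.3, 7.10 and 10.4 and 12.7, 12.5 and 20.7. Every cardiomyocyte column lay above every fibroblast column, a 4.18-fold difference (log2 fold change 2.06 ± 0.27 (SE), adjusted p = 0.000163).

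Cenpf, at chr1:189640606-189688086, encodes a large protein that joins the outer kinetochore in G2 and mitosis. It stood at 9.88, 12.7 and 42.7 CPM in Tg+ and 14.1, 13.0 and 23.2 CPM in Bag3-WT cardiomyocytes. In fibroblasts it stood at 1.49, 1.28 and 5.32 in Tg+ and 2.22, 1.73 and 3.97 in Bag3-WT. The cell types did not overlap, and the fold change was 5.55 (log2 fold change 2.47 ± 0.27 (SE), adjusted p = 4.30e-05).

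Prc1, at chr7:80294450-80316259, encodes the protein that bundles microtubules in the spindle midzone for cytokinesis. Its levels were 18.3, 13.0 and 30.1 CPM in Tg+ and 56.9, 14.7 and 40.6 CPM in Bag3-WT cardiomyocytes, against 2.18 to 6.37 CPM over the 6 fibroblast columns. The groups did not overlap (log2 fold change 2.34 ± 0.31 (SE), adjusted p = 0.000164). Kif20a, the midzone motor that works beside it, ranged over 7.83 to 105 CPM (median 19.7) in cardiomyocytes and 2.03 to 4.78 CPM (median 3.76) in fibroblasts. It was higher in 6 of 6 mice (log2 fold change 2.29 ± 0.45 (SE), adjusted p = 0.00207).

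Kif11 encodes the motor that pushes the spindle poles apart. Its range was 8.50 to 34.3 CPM (median 11.0) in cardiomyocytes and 2.48 to 4.76 CPM (median 3.20) in fibroblasts (log2 fold change 1.71 ± 0.39 (SE), adjusted p = 0.00503). Tpx2, which starts spindle assembly and activates Aurora A, ranged over 8.77 to 39.7 CPM (median 16.8) against 4.36 to 8.42 CPM (median 5.81) (log2 fold change 1.12 ± 0.27 (SE), adjusted p = 0.00625). Neither gene overlapped between the cell types in nuclear CPM, but Tpx2 did after TMM scaling. The call of Tpx2 was lost with rep1 alone and with the deposited signal. Nusap1, which binds spindle microtubules near chromosomes, ranged over 4.06 to 42.4 CPM (median 13.2) against 2.28 to 5.18 CPM (median 3.04) (log2 fold change 1.62 ± 0.45 (SE), adjusted p = 0.0137), higher in 6 of 6 mice though the ranges overlapped.

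Mki67 and Cenpa, both known as marks of dividing cells, went the other way. Mki67 encodes Ki-67, which coats mitotic chromosomes, and lies at chr7:135689784-135716361. Its levels were 11.8, 21.0 and 9.13 CPM in Tg+ and 21.7, 28.3 and 31.8 CPM in Bag3-WT cardiomyocytes, and 27.3, 21.3 and 28.2 and 50.3, 22.9 and 38.3 CPM in fibroblasts. The ranges overlapped, and within mice it was higher in cardiomyocytes in 1 of 6 (log2 fold change -1.05 ± 0.25 (SE), adjusted p = 0.00564). Cenpa, the histone H3 variant of centromeres, ranged over 0 to 9.22 CPM (median 5.72) in cardiomyocytes and 5.83 to 10.5 CPM (median 9.59) in fibroblasts and was lower in every mouse (log2 fold change -1.45 ± 0.46 (SE), adjusted p = 0.0237). It was listed at 0 in the cardiomyocyte column of Tg+ mouse 3, where 3 counts would be 1.10 CPM. Both calls were lost with nuclear library size alone, and that of Cenpa also without Bag3-WT mouse 1 and with the deposited signal. Cenpe, a kinetochore motor, was not called (1.32 to 7.86 CPM against 1.54 to 4.55, log2 fold change 0.39 ± 0.45).

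Among the 12 mitotic control genes 4 were called, all higher in cardiomyocytes, and 11 had a positive log2 fold change (median 0.85). Plk1 encodes a kinase of mitotic entry, spindle poles and cytokinesis and lies at chr7:122159439-122169873. It stood at 31.5, 18.6 and 118 CPM in Tg+ and 76.1, 1.05 and 47.9 CPM in Bag3-WT cardiomyocytes. In fibroblasts it stood at 1.08, 1.20 and 0.884 and 1.71, 2.17 and 3.64 CPM. The cardiomyocyte column of Bag3-WT mouse 2 lay inside the fibroblast range and the other 5 lay above it (log2 fold change 3.93 ± 0.83 (SE), adjusted p = 0.00366).

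Cdk1 encodes the kinase that drives entry into mitosis, and lies at chr10:69335146-69352938. Its levels were 2.95, 21.8 and 18.3 CPM in Tg+ and 2.35, 9.28 and 19.3 CPM in Bag3-WT cardiomyocytes, against 0.918 to 2.33 CPM over the fibroblast columns. In nuclear CPM every cardiomyocyte column lay above the fibroblast range, that of Bag3-WT mouse 1 only just (log2 fold change 2.24 ± 0.53 (SE), adjusted p = 0.00582). After TMM scaling that column of Bag3-WT mouse 1 lay inside the range. Bub1, a kinase of the spindle checkpoint, ranged over 1.87 to 23.0 CPM (median 5.87) against 0.743 to 1.82 CPM (median 1.06) (log2 fold change 2.23 ± 0.55 (SE), adjusted p = 0.00686). Ube2c, the ubiquitin-conjugating enzyme of the anaphase-promoting complex, ranged over 3.54 to 86.6 CPM (median 13.0) against 2.64 to 7.71 CPM (median 4.95) (log2 fold change 1.43 ± 0.53 (SE), adjusted p = 0.0482). This call was lost with no filter, with rep1 alone, with the deposited signal, and when any one of Tg+ mice 1, 2 or 3 or Bag3-WT mice 2 or 3 was left out.

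The cyclins that partner these kinases did not pass the test. Ccnb1 encodes cyclin B1, the main partner of Cdk1, and had 1.46 to 7.32 CPM in cardiomyocytes and 0.405 to 2.67 in fibroblasts (log2 fold change 1.14 ± 0.50 (SE), adjusted p = 0.0831). Ccnb2, cyclin B2, had 3.29 to 14.6 against 4.09 to 8.20 CPM (log2 fold change 0.08 ± 0.35). Ccna2, cyclin A2, had 0 to 13.1 against 1.82 to 5.19 CPM (log2 fold change 0.31 ± 0.67) and was listed at 0 in the cardiomyocytes of Bag3-WT mouse 1, where 3 counts would be 1.33 CPM. The levels of Cdk1 and of its cyclins thus stood apart between the cell types to different degrees, which is a comparison of calls and was not itself tested.

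The other 5 control genes were not called either. Bub1b, a second checkpoint kinase, ranged over 6.63 to 34.0 CPM (median 13.0) in cardiomyocytes and 3.76 to 9.16 CPM (median 5.58) in fibroblasts (log2 fold change 0.82 ± 0.32 (SE), adjusted p = 0.0586). Cdc20, which activates the anaphase-promoting complex, ranged over 4.76 to 24.4 CPM (median 16.2) against 7.54 to 12.3 CPM (median 8.37) (log2 fold change 0.30 ± 0.30). The log2 fold changes of the kinases Aurka (spindle poles) and Aurkb (chromosomal passenger complex) and of Birc5 (survivin, in the same complex) were 0.73 ± 0.42, 0.89 ± 0.37 and -0.31 ± 0.53. Birc5 was the one control gene with a negative value, and this sign turned with nuclear library size alone (0.10).

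**Figure D2:**
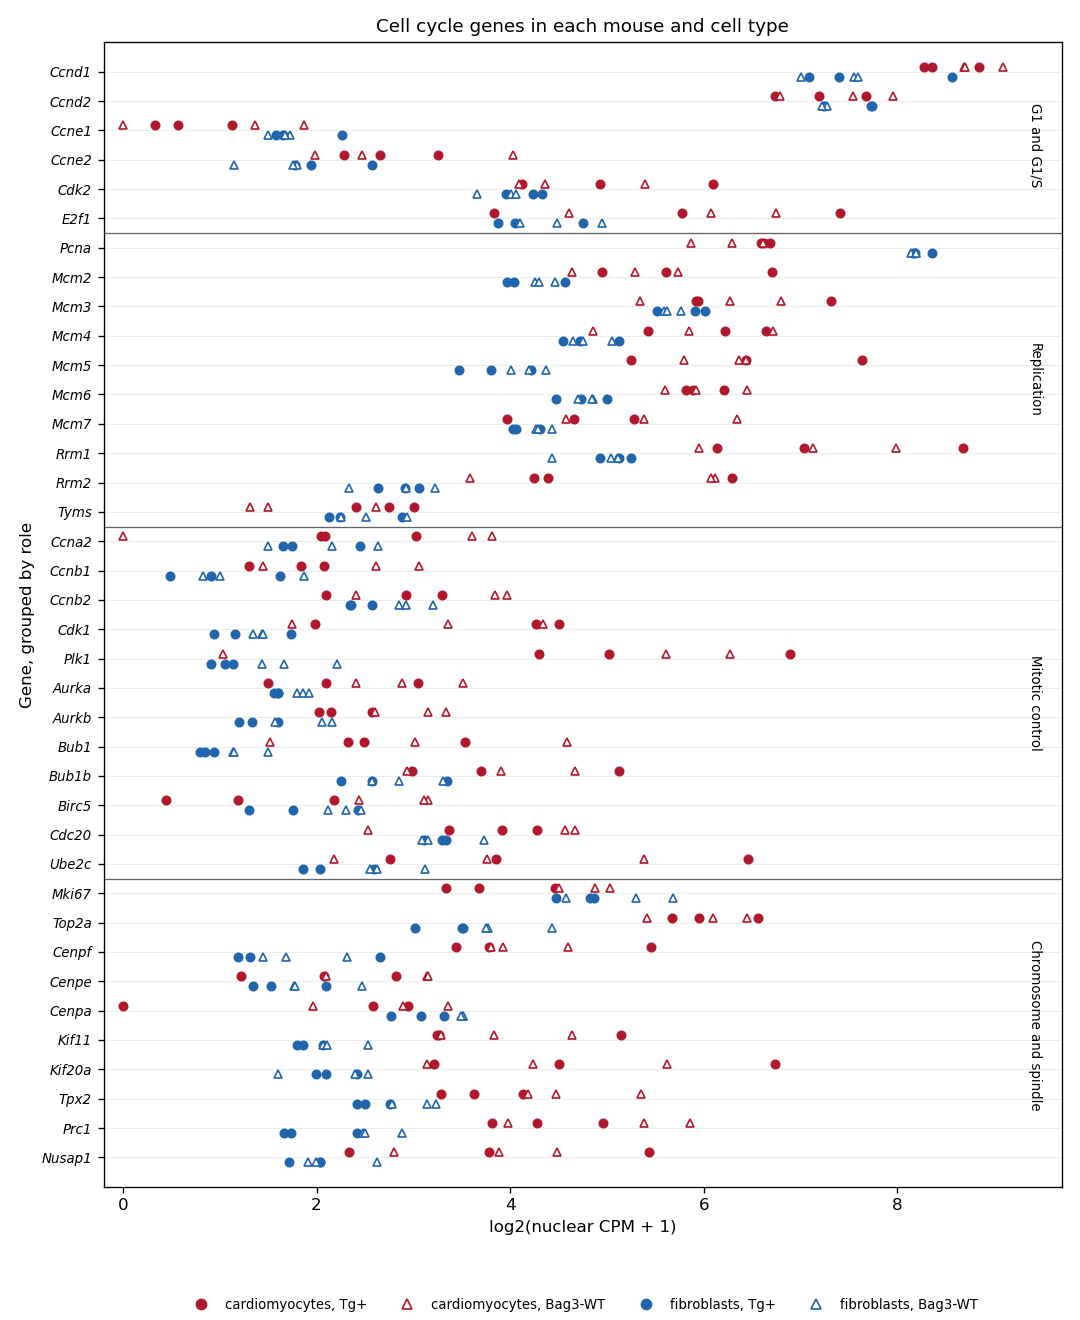
Level of each gene in each mouse (x axis, log2 of nuclear CPM plus 1), red for cardiomyocytes and blue for fibroblasts, filled circles for Tg+ and open triangles for Bag3-WT, in 4 role groups. Top2a, Prc1 and Rrm1 separate the colours, Pcna separates them in the opposite direction, and red points spread more widely than blue ones for 36 of the 38 genes.

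The S phase genes split within their own pathway. Pcna encodes the sliding clamp that holds polymerases on DNA, which also serves DNA repair, and lies at chr2:132249162-132253314. It stood at 95.2, 97.7 and 101 CPM in Tg+ and 57.3, 77.4 and 97.1 CPM in Bag3-WT cardiomyocytes. In fibroblasts it stood at 289, 284 and 328 and 282, 291 and 291 CPM. Every cardiomyocyte column lay below every fibroblast column, a 4.47-fold difference (log2 fold change -2.16 ± 0.20 (SE), adjusted p = 1.42e-05), while the helicase and ribonucleotide reductase genes were higher or did not pass the test.

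The MCM proteins form the helicase that opens DNA at replication forks. Mcm5, at chr8:75109569-75128439, stood at 37.1, 85.4 and 198 CPM in Tg+ and 85.8, 54.6 and 81.4 CPM in Bag3-WT cardiomyocytes, and at 10.1 to 19.7 CPM over the fibroblast columns. The groups did not overlap (log2 fold change 1.94 ± 0.40 (SE), adjusted p = 0.00274). Mcm6 ranged over 47.5 to 86.2 CPM (median 58.9) against 21.1 to 31.0 CPM (median 26.7), again without overlap (log2 fold change 0.85 ± 0.20 (SE), adjusted p = 0.00550). Mcm4 ranged over 27.9 to 104 CPM (median 65.0) against 22.3 to 34.0 CPM (median 25.8) (log2 fold change 0.79 ± 0.25 (SE), adjusted p = 0.0261), and this call was lost without Tg+ mouse 2, Bag3-WT mouse 1 or Bag3-WT mouse 3.

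The other 3 helicase subunits were not called by edgeR. Mcm2 ranged over 24.0 to 103 CPM against 14.7 to 22.8, without overlap in nuclear CPM but with overlap after TMM scaling. Its adjusted p was 0.0611 and its log2 fold change 0.85 ± 0.34. It passed with nuclear library size alone, by DESeq2 and limma voom, with rep2 alone, with no mouse block, and without Tg+ mouse 1 or Bag3-WT mouse 1. The log2 fold changes of Mcm3 and Mcm7 were 0.15 ± 0.28 and 0.44 ± 0.27. Mcm3 turned to -0.028 without Tg+ mouse 3, whose cardiomyocyte column was the highest for this gene.

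Ribonucleotide reductase makes the deoxyribonucleotides for DNA synthesis. Its large subunit Rrm1, at chr7:102441695-102469771, stood at 69.1, 130.3 and 408 CPM in Tg+ and 139, 61.0 and 252 CPM in Bag3-WT cardiomyocytes, and at 20.6 to 37.1 CPM in fibroblasts (log2 fold change 1.80 ± 0.44 (SE), adjusted p = 0.00680). Its small subunit Rrm2, at chr12:24708241-24714146, stood at 18.0, 20.0 and 77.1 and 68.5, 11.0 and 66.2 CPM against 4.05 to 8.36 CPM (log2 fold change 2.06 ± 0.48 (SE), adjusted p = 0.00529). Both subunits were higher in every mouse and did not overlap between the cell types in nuclear CPM, but Rrm2 did after TMM scaling. Tyms, thymidylate synthase, was not called (1.48 to 7.02 CPM against 3.38 to 6.62, log2 fold change -0.59 ± 0.41).

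In G1 the 2 called genes went in opposite directions. Ccnd1 encodes cyclin D1, the growth factor sensor of G1, and ranged over 308 to 546 CPM (median 412) in cardiomyocytes and 127 to 377 CPM (median 177) in fibroblasts. It was higher in 5 of 6 mice (log2 fold change 0.74 ± 0.24 (SE), adjusted p = 0.0279), and the call was lost with the deposited signal and without Tg+ mouse 1, Tg+ mouse 2, Bag3-WT mouse 1 or Bag3-WT mouse 3. Ccne1 encodes cyclin E1, a partner of Cdk2, and ranged over 0 to 2.64 CPM (median 0.833) against 1.83 to 3.81 CPM (median 2.17) (log2 fold change -1.99 ± 0.72 (SE), adjusted p = 0.0431). It was listed at 0 in the cardiomyocytes of Bag3-WT mouse 3, where 3 counts would be 0.955 CPM. That call was lost with nuclear library size alone, with the mitochondrial genes kept, with rep2 alone, and without any one of Tg+ mice 1, 2 or 3 or Bag3-WT mice 2 or 3.

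The remaining G1 genes did not pass. Ccnd2, cyclin D2, ranged over 106 to 247 CPM (median 165) against 149 to 212 CPM (median 152) (log2 fold change -0.48 ± 0.20 (SE), adjusted p = 0.0698). E2f1, the factor that switches on replication genes, ranged over 13.3 to 169 CPM (median 60.2) against 13.7 to 29.9 CPM (median 18.7) (log2 fold change 0.98 ± 0.50 (SE), adjusted p = 0.133), with a wide spread in cardiomyocytes. The log2 fold changes of Ccne2 (cyclin E2) and Cdk2 were 0.82 ± 0.43 and 0.44 ± 0.31.

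Counted by overlap of the columns in nuclear CPM, 8 of 22 mitotic genes lay wholly higher in cardiomyocytes (Cdk1, Bub1, Top2a, Cenpf, Kif11, Kif20a, Tpx2 and Prc1) and 0 wholly lower. Of the 16 S phase genes 5 lay wholly higher (Mcm2, Mcm5, Mcm6, Rrm1 and Rrm2) and 1 wholly lower (Pcna). Over all genes tested 19.2% lay wholly higher and 10% wholly lower. These counts are on the scale before TMM. After TMM scaling Cdk1, Bub1, Tpx2, Mcm2 and Rrm2 overlapped between the cell types, and the other genes named here did not.

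Summed over the 22 mitotic genes, the level in cardiomyocytes was 243, 272 and 663 CPM in Tg+ mice 1 to 3 and 419, 272 and 500.3 in Bag3-WT mice 1 to 3. In fibroblasts it was 96.6, 84.2 and 121 and 146, 109 and 168 CPM. The sum was higher in cardiomyocytes in every mouse, with a mean log2 ratio of 1.65 (1.26 after TMM scaling). Summed over the 16 S phase genes it was 1146, 1144 and 1917 and 1521, 1101 and 1517 CPM in cardiomyocytes, and 931, 789 and 1162 and 781, 874 and 888 CPM in fibroblasts. In nuclear CPM that sum too was higher in every mouse, with a mean log2 ratio of 0.60. After TMM scaling the mean was only 0.21, and the S phase sum was no longer higher in every mouse. The cyclins Ccnd1 and Ccnd2 made up a large share of this sum. Without them it was higher in nuclear CPM in 4 of 6 mice, as was the sum of the 10 replication genes alone. Without these cyclins the S phase sum was 814 ± 379.9 CPM (mean ± SD, n = 6) in cardiomyocytes and 536 ± 28.1 CPM in fibroblasts.

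**Figure D3:**
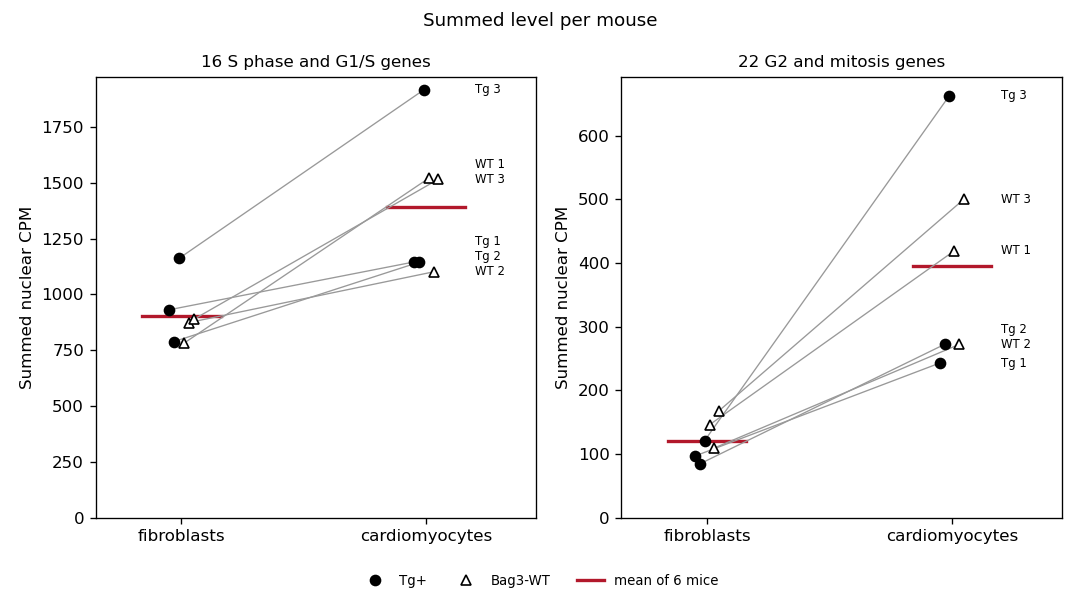
Summed level per mouse (y axis, nuclear CPM) of the 16 S phase genes and of the 22 mitotic genes, with a line joining the fibroblast and the cardiomyocyte column of each mouse and a red bar at the mean of 6 mice. On this scale, before TMM scaling, every line rises to the right, and Tg+ mouse 3 has the highest cardiomyocyte value in both panels.

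The cell type difference was also fitted within each genotype, with 3 mice each. Within Tg+ mice 7 of 22 mitotic genes were higher (Cdk1, Plk1, Top2a, Cenpf, Kif11, Kif20a and Prc1) and 1 lower (Mki67), against 6.71% higher and 12.9% lower over all 14223 genes tested. Of the S phase genes Mcm5 was higher and Pcna lower. Within Bag3-WT mice 4 of 22 mitotic genes were higher (Top2a, Cenpf, Kif20a and Prc1) and 0 lower, against 7.66% and 15% over all genes, and Pcna was the 1 S phase gene called, lower. The 4 mitotic genes called in Bag3-WT were all among those called in Tg+.

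For Top2a the log2 fold change was 2.49 ± 0.35 (SE) in Tg+ and 1.59 ± 0.34 in Bag3-WT mice, with adjusted p of 0.00121 and 0.00968. For Cenpf it was 2.67 ± 0.41 and 2.22 ± 0.41, with adjusted p of 0.00200 and 0.00426. For Pcna it was -1.96 ± 0.29 and -2.41 ± 0.30, with adjusted p of 0.00155 and 0.000511. These 3 genes thus kept their directions in both genotypes. For Plk1 it was 4.87 ± 1.15 and 2.88 ± 1.21, and only the value in Tg+ passed (adjusted p 0.0219 against 0.126). The difference between these values, which is the interaction of genotype and cell type, was 1.99 ± 1.55 (SE), unadjusted p = 0.232, and its adjusted p was 1.00. Without Tg+ mouse 3 the value of Plk1 was 3.88 ± 1.27 in Tg+ and 2.97 ± 1.16 in Bag3-WT mice, and neither passed (adjusted p 0.0852 and 0.0986).

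Without this mouse 3 mitotic genes were higher within Tg+ (Top2a, Cenpf and Prc1) and 0 lower, against 5.36% higher and 12.4% lower over all genes, with Mcm5 higher and Pcna lower as before. Within Bag3-WT the same fit then called 6 mitotic genes higher (Top2a, Cenpf, Kif11, Kif20a, Tpx2 and Prc1), against 14.1% of all genes. Of the S phase genes it called 5 higher (Ccnd1, Mcm5, Mcm6, Rrm1 and Rrm2) and Pcna lower. This fit had fewer Tg+ than Bag3-WT mice. The share of all genes called higher within Bag3-WT was 7.66% with every mouse and 14.1% here. Numbers of calls thus also changed with the mice fitted, and those of the genotypes were not tested against each other.

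On a scale of log2 of CPM plus 1 the genes varied more between mice in cardiomyocytes than in fibroblasts. The SD over 6 mice on this scale had a median of 0.78 for the 38 genes in cardiomyocytes and 0.33 in fibroblasts, against 0.55 and 0.30 over all genes tested. Adding 1 shrinks the SD most at levels of few CPM, where many mitotic genes stood in fibroblasts. It was larger in cardiomyocytes for 36 of the 38 genes and for 83.0% of all genes. Plk1 had the largest SD in cardiomyocytes, 2.08, and Mcm6 and Ccnd1 had the smallest, both 0.30. Without Tg+ mouse 3 the medians for the 38 genes were 0.71 and 0.32, against 0.44 and 0.24 over all genes. The cardiomyocyte columns were shallower, and their depth in this spread was not separated from other sources.

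Among the 6 cardiomyocyte columns that of Tg+ mouse 3 most often held the highest value, and that of Bag3-WT mouse 2 most often the lowest (11 of the 38 genes). Bag3-WT mouse 1 was the highest for 11. Such counts were not taken over all genes. The column of Tg+ mouse 3 was the highest of the 6 for 16 of the 38 genes, among them E2f1, Mcm2, Mcm5, Rrm1, Rrm2, Plk1, Ube2c, Top2a, Cenpf, Kif11, Kif20a and Nusap1. It was the lowest for 9, among them Birc5, Aurka, Ccnb2, Mki67, Tpx2 and Cenpa. In the same column the summed erythroid markers stood at 71.3 CPM, the mesothelial at 34.6 CPM, the macrophage at 721 CPM, the fibroblast at 5945 CPM, the endothelial at 1560.3 CPM, the lymphocyte at 1.10 CPM and the neutrophil at 4.02 CPM, each the lowest of the 6, and the smooth muscle markers at 4356 CPM, the highest. Their part in the levels was not tested. Without this mouse 19 of the 21 calls by cell type remained, Ccne1 and Ube2c were lost and Ccnb1 was gained.

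Some of these high and low values recurred in both libraries of a mouse, and others did not. The highest mouse was the same in rep1 and rep2 for 24 of the 38 genes, and the SD between mice exceeded the median difference between repeats for 33. Plk1 stood at 156 and 111 CPM in rep1 and rep2 of Tg+ mouse 3 and at 0 and 1.57 CPM in those of Bag3-WT mouse 2. Rrm1 stood at 353 and 418 CPM in the former and at 56.4 and 63.2 CPM in the latter. Pcna, by contrast, stood at 53.6 and 109.8 CPM in the libraries of Tg+ mouse 3. These 3 genes were chosen after their values were seen. Over all genes, repeats of a mouse scattered by 1.51 to 1.69 times counting error (chi-squared per degree of freedom), and libraries of different mice by 4.82 to 88.8 times. The labels state that cardiomyocyte samples were sequenced a second time, without saying whether the repeats are those rounds.

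Genotype was then compared within each cell type, 3 Tg+ against 3 Bag3-WT mice, to see whether the transgene goes with a change in these genes. None of the 38 genes was called in either cell type. By edgeR 0% of all genes tested were called in cardiomyocytes (0 of 12114), in fibroblasts (0 of 13858) and for the interaction (0 of 14223). At an unadjusted p under 0.05 there were 87, 699 and 138 genes (0.718%, 5.04% and 0.970% of those tested). The shares in cardiomyocytes and for the interaction were low, and a lack of calls with 3 mice per genotype does not show that genes were unchanged. DESeq2 called 3, 6 and 1 genes, with 0 of the 38 among them.

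In fibroblasts the mitotic genes had a common sign without passing the test. The fitted log2 fold change of Tg+ minus Bag3-WT was negative for all 22, with a median of -0.52 and a range of -1.25 to -0.06, whereas over all genes it was negative for 47.7% with a median of 0.02. An unadjusted p under 0.05 was found for 6 of the 22 genes, against 5.04% of all genes. In 9 of the 22 every Tg+ mouse lay below every Bag3-WT mouse (Ccnb2, Plk1, Aurka, Bub1, Top2a, Cenpa, Kif11, Tpx2 and Prc1), and in 0 above, against 6.85% of all genes below and 5.1% above. The 16 S phase genes had 8 positive and 8 negative values (median -0.01), with 0 at an unadjusted p under 0.05 and 0 whose genotypes did not overlap.

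Ccnb2 (cyclin B2) stood at 4.12, 4.09 and 4.95 CPM in Tg+ and 6.58, 6.20 and 8.20 CPM in Bag3-WT fibroblasts (log2 fold change -0.71 ± 0.23 (SE), unadjusted p = 0.0165, adjusted p = 0.782). Top2a stood at 10.3, 7.10 and 10.4 and 12.7, 12.5 and 20.7 CPM (log2 fold change -0.76 ± 0.26 (SE), unadjusted p = 0.0188, adjusted p = 0.782). Plk1 stood at 1.08, 1.20 and 0.884 and 1.71, 2.17 and 3.64 CPM (log2 fold change -1.25 ± 0.44 (SE), unadjusted p = 0.0235, adjusted p = 0.782). These were the 3 genes with the lowest p, and in each of them the Tg+ mice lay lower without overlap, at levels of few CPM.

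The sum of the mitotic genes in fibroblasts, given above, was 101 ± 18.6 CPM (mean ± SD, n = 3) for Tg+ and 141 ± 29.7 for Bag3-WT mice, and Tg+ mouse 3 lay above Bag3-WT mouse 2. Bag3-WT mouse 3 had the highest level of 15 of the 22 genes, and Tg+ mouse 2 the lowest of 12. Without Bag3-WT mouse 3 the sign was negative for 16 of 22 genes and 0 reached an unadjusted p of 0.05, and over the other alternatives it was negative for 20 to 22. Without Tg+ mouse 1 only 1 of the 22 reached that p (3.32% of all genes). It was 3 without Tg+ mouse 2 (11.2% of all genes) and 3 with nuclear library size alone (5.33%). The letter in the animal codes (F or M) was unevenly spread over the genotypes, with Tg+ mice coded F, M, F and Bag3-WT mice F, M, M. With the letter as a term all 22 signs stayed negative. Comparing mice of one letter by their means, Tg+ was lower for 14 of 22 genes within F, for 22 within M and for 14 within both. Over all 13858 genes Tg+ was lower for 6044 within F, for 8918 within M and for 30.0% within both. Bag3-WT mouse 1 alone stood for its genotype within F, and Tg+ mouse 2 alone within M.

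Macrophage markers moved with genotype in the same fibroblast columns. Their summed level was 5616, 7028 and 3625 CPM for Tg+ and 9984, 7797 and 8225 CPM for Bag3-WT mice, without overlap, and 8 of 8 had a negative log2 fold change (median -0.72) though 0 were called. Of the 5 mesothelial markers 4 were negative, with summed levels of 117, 119 and 92.6 and 211, 171 and 114 CPM, and of the 6 erythroid markers all were. Of the 9 cardiomyocyte markers 8 were negative (median -0.29), whereas 7 of 8 fibroblast markers and all 6 endothelial markers were positive. The part of these cells in the values of the mitotic genes was not tested.

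**Figure D4:**
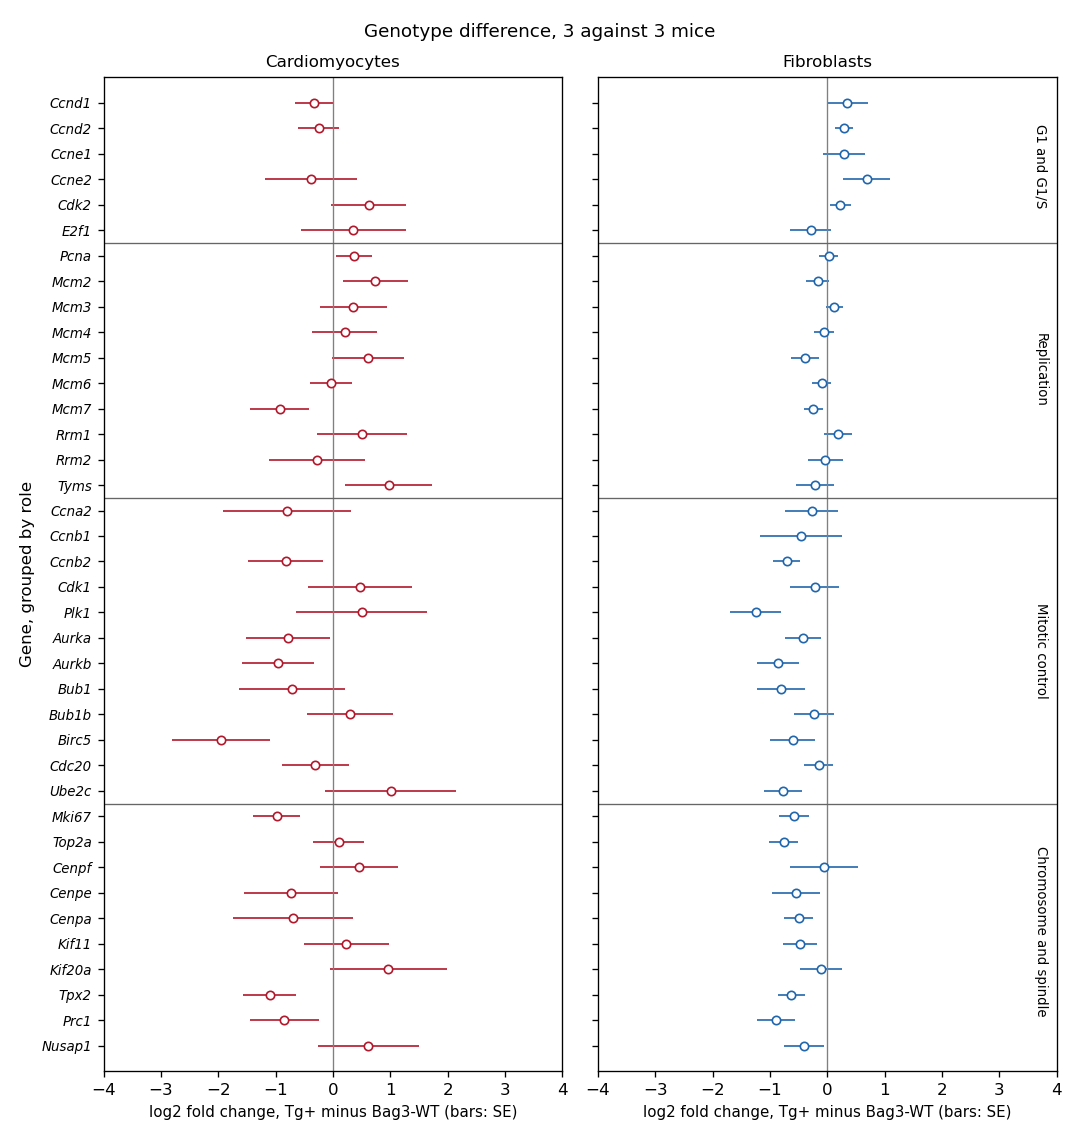
Log2 fold change of each gene in Tg+ minus Bag3-WT mice (x axis), in cardiomyocytes (left, red) and fibroblasts (right, blue), with bars for the SE and all points open since none passed. In fibroblasts all 22 mitotic genes lie left of 0, and in cardiomyocytes the values lie on both sides with wider bars. Ccne1 and Ccnb1 were too low to be tested in cardiomyocytes.

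In cardiomyocytes the mitotic genes did not share a sign. Of 21 tested, 12 were negative and 9 positive (median -0.70), and 2 had an unadjusted p under 0.05, against 0.718% of all genes. In 4 of 22 (Aurkb, Birc5, Mki67 and Tpx2) every Tg+ mouse lay below every Bag3-WT mouse and in 0 above, against 2.1% of all genes below and 2.06% above. Of 15 S phase genes tested 6 were negative and 9 positive (median 0.36), with 0 not overlapping. By limma voom on the same mice 17 of 21 mitotic and 7 of 15 S phase genes were negative. Without Tg+ mouse 3, by edgeR, 21 of 22 mitotic genes and 13 of 15 S phase genes were negative. Without Bag3-WT mouse 1 it was 3 of 15 S phase genes.

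Mki67 stood at 11.8, 21.0 and 9.13 CPM in Tg+ and 21.7, 28.3 and 31.8 CPM in Bag3-WT cardiomyocytes (log2 fold change -0.98 ± 0.40 (SE), unadjusted p = 0.0404, adjusted p = 1.00). Tpx2 stood at 16.5, 11.3 and 8.77 and 39.7, 21.2 and 17.1 CPM (log2 fold change -1.10 ± 0.46 (SE), unadjusted p = 0.0438, adjusted p = 1.00). Birc5, for which Tg+ mouse 3 lay under the 1.10 CPM that 3 counts make in that column, stood at 1.28, 3.54 and 0.365 and 4.42, 7.86 and 7.64 CPM (log2 fold change -1.95 ± 0.85 (SE), unadjusted p = 0.0502, adjusted p = 1.00). Tg+ mice lay lower in all 3 genes, yet by narrow gaps in Mki67 and Tpx2, and Tg+ mouse 3 was the lowest of each. All 9 cardiomyocyte markers and all 8 macrophage markers had negative log2 fold changes in the same comparison, as did 4 of 5 mesothelial and all 3 neutrophil markers tested, whereas all 6 endothelial markers were positive (median 0.31). None of these markers was called, and their part was not tested.

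The interaction asks whether the genotype difference was larger in one cell type. It was called for 0 of the 38 genes, and 0 had an unadjusted p under 0.05. The lowest p values belonged to Top2a (log2 interaction 0.91 ± 0.48 (SE), unadjusted p = 0.0872), Tyms (1.43 ± 0.78 (SE), unadjusted p = 0.0973) and Ube2c (1.37 ± 1.02 (SE), unadjusted p = 0.207). For Top2a the genotype difference was 0.10 in cardiomyocytes and -0.76 in fibroblasts. The interaction was positive for 10 of 16 S phase and 13 of 22 mitotic genes, and without Tg+ mouse 3 for 3 and 10, with 0 called. The sign of the fibroblast mitotic genes was thus not shown to differ from that in cardiomyocytes.

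Other genes of the pathway, in lists of the regulators and partners of the 38, were read from the same fit by cell type. In that fit 20.4% of all genes were called higher and 24.7% lower in cardiomyocytes. The counts per list below were not tested against these shares, and several lie near them. Of 7 CDK inhibitors 2 were higher and 3 lower in cardiomyocytes. Cdkn1a, which encodes p21, an inhibitor of cyclin kinases that also binds PCNA, stood at 287, 118 and 288 CPM in Tg+ and 229.9, 155 and 121 CPM in Bag3-WT cardiomyocytes. In fibroblasts it stood at 1028, 963 and 1189.6 and 855, 1000.3 and 999.8 CPM, all above the cardiomyocytes (log2 fold change -2.81 ± 0.28 (SE), adjusted p = 2.21e-05). Cdkn2a, whose products inhibit CDK4 and protect p53, was lower (log2 fold change -1.73 ± 0.28 (SE), adjusted p = 0.000563), and Cdkn2c, an inhibitor of CDK4 and CDK6, was higher (log2 fold change 1.38 ± 0.24 (SE), adjusted p = 0.000877).

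Of 12 genes of RB and the E2F factors 2 were higher and 2 lower. E2f7, a repressing E2F, was lower (log2 fold change -3.39 ± 0.41 (SE), adjusted p = 9.78e-05). Rbl1, the RB relative p107, and E2f6, another repressor, were higher by 1.30 ± 0.30 and 1.04 ± 0.26 (log2 fold change ± SE, adjusted p = 0.00527 and 0.00793). Of 8 genes of the DREAM and MYB-FOXM1 complexes 3 were higher and 1 lower: Mybl2, the MYB partner of the mitotic program, was higher (log2 fold change 2.34 ± 0.40 (SE), adjusted p = 0.000846), as was Lin9 (1.51 ± 0.47, adjusted p = 0.0234), and Lin54, the subunit that contacts the CHR, was lower (-0.80 ± 0.19, adjusted p = 0.00620).

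Of 8 other G1 genes 2 were higher and 2 lower. Ccnd3, cyclin D3, was higher (0.95 ± 0.18, adjusted p = 0.00155), and Cdk6 (-1.94 ± 0.33, adjusted p = 0.000903) and Myc (-1.34 ± 0.35, adjusted p = 0.00940) were lower. Of 17 genes of origin licensing and firing 5 were higher and 2 lower. Cdt1, which loads the helicase, was lower, with 0 to 13.6 CPM in cardiomyocytes against 51.7 to 102 in fibroblasts (log2 fold change -3.86 ± 0.41 (SE), adjusted p = 3.54e-05). Orc5 of the origin recognition complex and Gins3 of the active helicase were higher (2.17 ± 0.29 and 1.96 ± 0.43, adjusted p = 0.000195 and 0.00378).

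Of 23 genes of the fork and nucleotide supply 9 were higher and 1 lower. Pola2 of the primase complex was the lower one (-1.50 ± 0.22, adjusted p = 0.000349), and Rfc1, which loads PCNA, and Rpa3, which covers single-stranded DNA, were higher (1.11 ± 0.18 and 1.77 ± 0.32, adjusted p = 0.000557 and 0.00117). Rfc1 and Pcna, loader and clamp, thus went in opposite directions.

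Of 18 other spindle, chromosome and cytokinesis genes 10 were higher and 1 lower. Anln, the scaffold of the contractile ring, ranged over 12.2 to 174 CPM (median 69.3) against 2.23 to 7.27 CPM (median 4.25) (log2 fold change 3.34 ± 0.45 (SE), adjusted p = 0.000180). Ncapg of condensin ranged over 4.97 to 139 CPM (median 32.1) against 0.847 to 2.30 CPM (median 1.49) (log2 fold change 3.94 ± 0.59 (SE), adjusted p = 0.000393), and Kif18b, a motor at microtubule ends, over 4.75 to 17.9 CPM (median 12.8) against 0.203 to 2.62 CPM (median 0.910) (log2 fold change 3.31 ± 0.48 (SE), adjusted p = 0.000298). All 3 were higher in 6 of 6 mice. Of 9 kinetochore and checkpoint genes tested, out of 15 listed, 4 were higher and 0 lower, among them Bub3, Nuf2 and Mad2l1 (1.19 ± 0.34, 1.27 ± 0.41 and 1.49 ± 0.52, adjusted p = 0.0155, 0.0263 and 0.0359). Of 11 tested genes of the DNA damage checkpoint and G2 control 3 were higher and 2 lower. Ccng1, a p53 target, and Cdc25b, a phosphatase that activates Cdk1, were higher (1.72 ± 0.22 and 1.31 ± 0.36, adjusted p = 0.000153 and 0.0131), and Pkmyt1, a kinase that inhibits Cdk1, was lower (-1.22 ± 0.33, adjusted p = 0.0109).

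By genotype 0 genes of these lists were called. In fibroblasts the log2 fold change of Tg+ minus Bag3-WT was negative for 16 of 18 spindle, chromosome and cytokinesis genes (median -0.40) and for 8 of 10 kinetochore and checkpoint genes (median -0.58). For the 23 fork genes it was negative for 14 (median -0.05). In cardiomyocytes it was negative for 7 of 18 spindle genes (median 0.04).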

How the data were processed

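Levels of RNA in cardiomyocytes and fibroblasts from 6 mouse hearts were read from the deposited tables. The first table holds the authors' estimated counts per gene, partly not whole (44.7% of values). The second holds a normalized signal deposited by the authors, of unstated normalization. It served 1 alternative only. GRCm38.p6 is the build in the submitters' processing notes, which also list R 3.4.4, DESeq2 1.18.1 and kallisto 0.44.0 without their roles. Per the labels' protocols, polyadenylated RNA was enriched on oligo(dT) beads and fragmented.

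The 2 cardiomyocyte libraries of each mouse were added up and rounded to whole counts, leaving 12 columns. The 13 mitochondrial genes were removed before library sizes were taken. The cardiomyocyte columns kept 2.26 to 7.79 M and the fibroblast columns 11.3 to 15.8 M counts (M, 1e6), and 3 counts stood for 0.190 to 1.33 CPM. Such limits cover counting error only. Tests used edgeR 4.0.16 in R 4.3.3 (filterByExpr, TMM, robust quasi-likelihood fit, two-sided, Benjamini-Hochberg over all genes tested, threshold 0.05). Cell type was tested with the mouse as a block (6 mice), genotype in each cell type alone (3 against 3 mice), and cell type within each genotype and the interaction in 1 model. P-values by genotype set the difference between genotypes against the spread between these mice. The letter in the animal codes was not in the main fits. Alternatives were nuclear library size alone, the mitochondrial genes kept, DESeq2 1.42.0, limma voom (limma 3.58.1), no filter, each mouse left out, rep1 or rep2 alone, no mouse block, the letter as a term and a replicate block, and, chosen after seeing the data, limma on log2 of the deposited signal plus 1, and the cell type fits within a genotype and the spread between mice without Tg+ mouse 3.

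The genes, lists and tests were chosen with earlier results of these data known. Named were up to 4 genes per role with the highest mean level and those called by cell type with at least 1 CPM in the higher type, the 3 with the lowest p per genotype comparison, up to 3 called genes with the lowest p per pathway list, and Bag3 and Cdkn1a. The other genes of the 38 were then added by their values. List genes Knl1 and Sgo1 were not matched by symbol. Some marker genes are not reported here by name.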

Additional observations from a re-analysis of the deposited data

Results flagged for a closer look

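In each cell type the 6 mice were searched for a single mouse far from the other 5, in 76 groups of values (38 genes in 2 cell types). The gap to the nearest mouse, relative to the whole range, passed Dixon's critical value for 6 samples in 8 groups. For independent, normally distributed values chance flags about 1 in 20, or 3.8 of 76, and the values were not checked for either property. In cardiomyocytes Tg+ mouse 3 stood above the others for the helicase genes Mcm2 (103 CPM, nearest 52.2) and Mcm5 (198 CPM, nearest 85.8).

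In fibroblasts Tg+ mouse 3 stood above the others for Ccnd1 (377 CPM, nearest 192) and for Pcna (328 CPM, nearest 291), and Tg+ mouse 1 for Ccne1 (3.81 CPM, nearest 2.30). Bag3-WT mouse 3 stood above the others for Cdc20 (12.3 CPM, nearest 9.09) and Nusap1 (5.18 CPM, nearest 3.11). Bag3-WT mouse 1 stood above the others for Kif11 (4.76 CPM, nearest 3.31). Of the 8 values 4 belonged to Tg+ mouse 3, and none was a low value.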

How the results depend on the processing

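Among the calls by cell type, 17 to 21 of the 21 remained under each alternative. Genes gained under at least 1 alternative were Ccnd2, Ccne2, Cdk2, E2f1, Mcm2, Mcm7, Ccnb1, Aurkb and Bub1b, all but Ccnd2 with nuclear library size alone. With nuclear library size alone 0 mitotic genes were lower, 11 S phase genes higher and 1 lower, and over all genes 4571 higher and 2160 lower. The number of mitotic genes called lower was 1 with the deposited signal and 1 to 2 with a mouse left out. The number of S phase genes called lower was 1 with the mitochondrial genes kept, 1 with rep2 alone and 1 to 2 with a mouse left out. The summed S phase level had a log2 ratio of 0.21 after TMM scaling. By genotype DESeq2 called 3 genes in cardiomyocytes, 6 in fibroblasts and 1 for the interaction, none of them among the 38, and 0 of the 38 were called under any alternative. In cardiomyocytes the number with a negative log2 fold change was 3 to 13 of 15 S phase genes and 12 to 21 mitotic genes with a mouse left out, and 7 of 10 mitotic genes with rep1 alone.

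The sign by cell type turned only in genes that were not called: Mcm3 (-0.028 to 0.38 with a mouse left out), Tyms (0.40, deposited signal), Ccna2 (-0.13 to 0.77, lowest without Bag3-WT mouse 2, and -0.29 with the deposited signal), Ccnb2 (-0.067 to 0.29, below 0 without Tg+ mouse 1 or Bag3-WT mouse 1, -0.040 with rep1 alone and -0.12 with the deposited signal), Birc5 (0.10 with nuclear library size alone and -0.53 to 0.11, highest without Tg+ mouse 3) and Cenpe (-0.14, deposited signal). The interaction of Tyms was -0.17 with rep1 alone. The causes were not tested.

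Deviations of cardiomyocyte libraries from the mean of their genotype were correlated across genotypes. The mean was 0.0142 for libraries with the same repeat number (-0.479 to 0.446) and -0.00507 for those with the other number (-0.452 to 0.354). Subtracting the genotype mean holds the mean over all pairs near 0, and differences between mice are part of each deviation. A small effect shared by libraries of the same repeat number could thus not be excluded. With the replicate block 0 genes were called in cardiomyocytes, and 12 of 14 mitotic genes were negative. Depth limits the cardiomyocyte values most, where 3 counts made up to 1.33 CPM.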
